A study of Homo sapiens with 6 samples.

Results

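The transcriptome described here is the baseline of an oral squamous carcinoma line: cells that received a control siRNA. Its members are the 3 libraries labelled as control siRNA, numbered 1, 3 and 5, out of 6 libraries in all; the other 3 carry an siRNA against the RNA-binding protein Sam68 and were not compared. All cells were HO-1-N-1, an established human line from an oral squamous cell carcinoma, grown in medium with serum and transfected with a lipid reagent, so the levels are those of transfected cells of 1 line and not of untreated cells or of a tumour. Poly(A) RNA was sequenced, and read counts, RPKM and TPM were deposited for 21462 genes. TPM, a length-scaled abundance, divides reads by gene length and sets each library to the same total, so levels may be compared between genes. The labels do not say whether the libraries came from separate cultures, so every SD below is a spread among libraries and may be purely technical. With 1 group there is nothing to test against, and no p-value is given.

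Squamous epithelia are built from keratinocytes, which divide in a basal layer held by integrins and laminin, express the paired basal keratins, and switch to other keratins and to cornified envelope proteins as they mature. The transcription factor p63 maintains the basal state, and receptors of the EGF family drive its growth. Carcinomas of these epithelia often keep basal genes while mature ones are low, and may add genes of simple epithelium or of mesenchyme. Genes of the immediate early class, such as FOS and EGR1, are transcribed within minutes of a stimulus and their mRNAs are short-lived.

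Control libraries 1, 3 and 5 held 16099488, 16798283 and 16175212 counts, with a count in 14497, 14530 and 14590 genes. KHDRBS1, which encodes Sam68, stood at 248, 228 and 189.5 TPM in controls 1, 3 and 5. Control 5 stood apart from controls 1 and 3. Over the genes that were on, the correlation of log2(TPM + 1) across genes was 0.995 between controls 1 and 3, 0.988 between controls 1 and 5 and 0.989 between controls 3 and 5; genes are not independent replicates. Among 9931 genes with a mean of at least 5 TPM, some differed by 2-fold or more in TPM + 1. These were 8 genes between controls 1 and 3, 60 between controls 1 and 5 and 51 between controls 3 and 5. The mRNAs of the mitochondrial genome took 0.558%, 0.764% and 7.09% of TPM in controls 1, 3 and 5. Because TPM sums to a fixed total, this lowers all other genes in control 5: the median log2 difference of control 5 from control 1 was -0.09 with the mitochondrial genes in the total and -0.00 without them.

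A gene was called on where its mean over the 3 controls was at least 1 TPM. By that rule 11859 of 21462 genes (55.3%) were on. Of the rest, 5982 genes had no count in any control and 3621 were counted but averaged under 1 TPM. A gene near the threshold rested on few reads: the 180 genes between 0.9 and 1.1 TPM had a median of 20 counts per library. A count of 0 allows up to 3 counts, or 0.186, 0.179 and 0.185 CPM in controls 1, 3 and 5. A gene with no count is under this limit and not shown to be absent. CPM takes no account of gene length, so in TPM the limit is higher for short genes. In the short gene SPRR1A 1 count in control 3 was 0.66 TPM, so 3 counts there would exceed the threshold of 1 TPM. Genes from 10 to 100 TPM were the most numerous class among those on, with 6558 genes, but they held 23.7% of TPM. The 1757 genes from 100 to 1000 TPM held 42.8% and the 141 genes at 1000 TPM or more held 31.8%.

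Expression was concentrated in few genes. The 10 genes of highest mean over the 3 controls took 6.61%, 6.55% and 6.28% of TPM in controls 1, 3 and 5, a mean of 6.48% ± 0.178 (SD, n = 3). Ranked within each library instead, the leading 10 took 6.61%, 6.55% and 8.83%, a mean of 7.33% ± 1.30 (SD, n = 3); those of control 5 then included 4 mitochondrial genes, and those of controls 1 and 3 none. The 100 genes of highest mean took 25.7% in control 1, 25.9% in control 3 and 29.7% in control 5, and the leading 100 of each library 26.3%, 26.2% and 30.4%. In control 1, 506 genes sufficed to reach 50% of TPM, in control 3 511 genes, and in control 5 409 genes. Controls 1 and 3 were thus alike and control 5 was more concentrated.

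**Figure D1:**
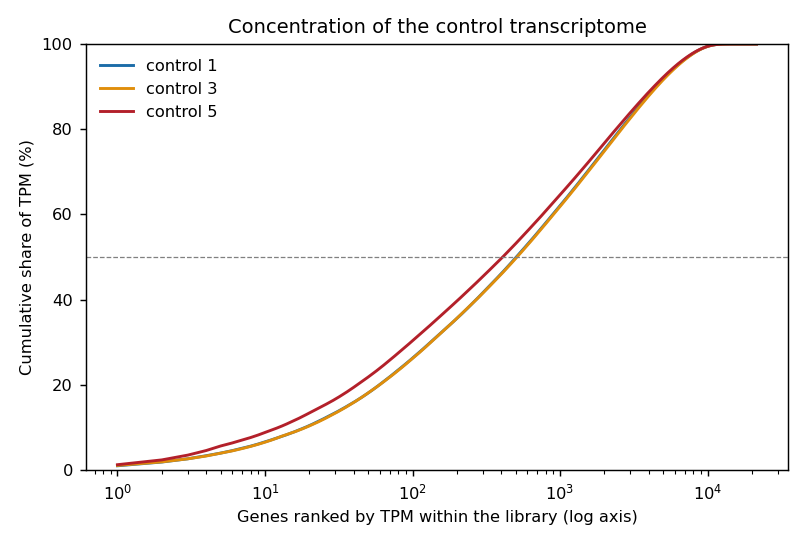
Cumulative share of TPM (%) against the rank of genes by TPM within each library (log axis), 1 line per control library; the dashed line marks 50%. Control 5 crosses 50% at 409 genes, and controls 1 and 3 cross it at 506 and 511.

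The most abundant transcript was FTH1 (ENSG00000167996, chr11:61959718-61967634 on hg38), the heavy chain of the iron store ferritin. It stood at 10150.3, 10976 and 12699.6 TPM in controls 1, 3 and 5, a mean of 11275 ± 1301 TPM (SD, n = 3). Its partner FTL, the light chain, averaged 3982 ± 250.2 TPM and ranked 18. Both are also listed as NRF2 targets, and processed copies of ferritin genes could share their reads. Thymosin beta 10 (TMSB10), which binds actin monomers, averaged 6691 ± 819.8 TPM, and the actins ACTB and ACTG1 averaged 5473 ± 429 and 4523 ± 517 TPM. Among glycolytic enzymes GAPDH led with 6083, 7217 and 6739.6 TPM. The elongation factors EEF1A1 and EEF1G averaged 6608 ± 637 and 5342 ± 499.8 TPM.

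Ribosomal proteins formed the largest block among the leading genes. RPS18, a protein of the small subunit, ranked 2 with 8816, 8328 and 7191 TPM in controls 1, 3 and 5, and RPS12, RPL41, RPL8, RPL35, RPL39, RPL13A and RPL7A were also among the leading 25. Of 87 genes named as cytosolic ribosomal proteins 84 were on, and together they took 13.2%, 13.1% and 11.8% of TPM. Their many processed pseudogenes could share reads, so single values are uncertain.

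Epithelial genes stood in the same leading group. KRT17 (ENSG00000128422, chr17:41619442-41624842), a keratin of basal and stressed keratinocytes, ranked 11 and stood at 4649, 4681 and 4847 TPM, with a CV of 2.24%, the lowest of the leading 25. S100A11, a calcium-binding protein, averaged 3261 ± 384 TPM, and the metal-binding protein MT2A averaged 3713 ± 208 TPM. Mitochondrial genes were 4 of the leading 25. MT-CO3, a subunit of cytochrome c oxidase, had 929, 1281 and 11239 TPM in controls 1, 3 and 5, and MT-CO1, MT-CO2 and MT-ATP6 showed the same order. Their rank rests on control 5 alone, since in controls 1 and 3 none of the 4 exceeded 1281 TPM.

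The cell type label was checked against its markers. All 10 basal keratinocyte markers were on, between 30.7 and 2752 TPM, and their sums were 8264, 8000 and 8396 TPM in controls 1, 3 and 5. Of 8 squamous differentiation markers 4 were on, and of 5 simple-epithelial markers all 5. Markers of other cells were mostly under 1 TPM: 0 of 5 melanocyte, 0 of 5 neural and 0 of 5 muscle markers were on. Of 6 endothelial markers 1 was on (CDH5, 1.26 TPM), of 7 fibroblast markers 2 (LUM, 4.86 TPM, and COL1A2, 1.30 TPM), and of 8 blood markers 1 (CD14, 5.58 TPM). PTPRC, CD3D, MS4A1 and HBB had no count. The basal keratinocyte markers were thus present in each library and several defining markers of blood cells were at 0.

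In the longer list of basal and stress keratinocyte genes 21 of 21 were on, with a median level of 310.1 TPM, where 55.3% of all genes were on. KRT5 and KRT14, the keratin pair of the basal layer, stood at 2519, 2578 and 2389 TPM and at 2726, 2583 and 2947 TPM in controls 1, 3 and 5. The libraries lay close together in both. SFN, the checkpoint protein 14-3-3 sigma, averaged 1632 ± 141 TPM and CAV1, the caveola coat protein, 1253 ± 103 TPM. Hemidesmosome and laminin-332 genes were on throughout, with LAMB3 at 310.1 ± 73.9 TPM, LAMA3 at 97.2 ± 26.1 TPM and the integrin chains ITGB4 and ITGA6 at 316 and 270.2 TPM. TP63, which encodes p63, stood at 31.3, 38.2 and 33.4 TPM in controls 1, 3 and 5. KRT6A, KRT6B and KRT6C, injury-associated keratins, averaged 328, 127 and 201 TPM, and their near-identical sequences make the split between them uncertain.

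Of 30 squamous differentiation genes 17 (56.7%) were on, near the 55.3% of all genes, and 13 off, 7 of them with no count. KRT13, a keratin of mature oral mucosa, was the highest with 198, 203 and 193 TPM, followed by the envelope protein periplakin (PPL) with 131 ± 5.97 TPM. MAL, KRT10 and CSTA averaged 104, 104 and 61.7 TPM. Involucrin (IVL), an early envelope precursor, stood at 7.48, 8.11 and 9.39 TPM, whereas KRT1, LOR, KRT2, FLG2, TGM3 and KRTDAP had no count. KRT4, the usual partner of KRT13, was off at 0.194 TPM. SPRR1B and SPRR2A, small proline-rich envelope proteins, met the rule for variable genes and are described with them.

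Genes of simple epithelium were on beside the basal ones, 13 of 15 (86.7%), where 55.3% of all genes were. KRT18 and KRT8, the keratin pair of simple epithelium, stood at 2268, 2235 and 2124 TPM and at 1341, 1286 and 1198 TPM in controls 1, 3 and 5. KRT80 averaged 672 ± 29.4 TPM, the tight junction proteins CLDN7 and CLDN4 563 and 251 TPM, and EPCAM 224 ± 30.1 TPM. KRT19, a keratin of many carcinomas and simple epithelia, was near the threshold at 2.87, 2.79 and 1.68 TPM. MUC1 and KRT20 were off. Over all 54 keratin genes 20 were on and took 1.56%, 1.55% and 1.57% of TPM, so their summed level scarcely differed between the libraries.

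Cell junction genes were on in 22 of 25 cases (88%), where 55.3% of all genes were. Plakoglobin (JUP), shared by desmosomes and adherens junctions, was highest with 746, 857 and 861 TPM, and CLDN1 averaged 577 ± 32.5 TPM. E-cadherin (CDH1) stood at 333, 391 and 335 TPM, with its catenin partners CTNND1 and CTNNA1 at 272 and 252 TPM. The members off were DSC1, DSG1 and DSG4, desmosomal cadherins of upper skin layers; their basal relatives DSG3 and DSC3 averaged 130.2 and 43.3 TPM.

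**Figure D2:**
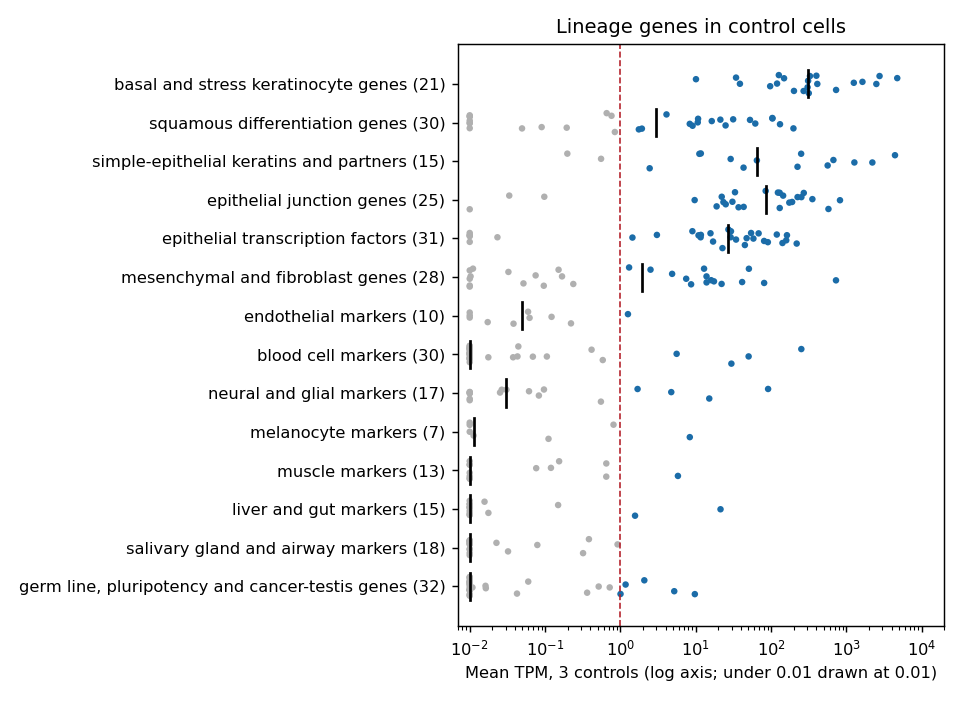
Mean TPM over the 3 controls (log axis) of each gene in 14 lineage lists, with the number of genes in brackets; blue points are on, grey points are off, black bars are list medians and the dashed line marks 1 TPM. The medians of the epithelial lists and of the mesenchymal list lie above the line and those of all other lists below it.

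Of 31 epithelial transcription factors 25 (80.6%) were on, where 55.3% of all genes were. The splicing regulator ESRP1, which maintains epithelial isoforms, stood at 169, 178 and 139.9 TPM in controls 1, 3 and 5. SOX15 averaged 159 ± 14.1 TPM, EHF 142 ± 13.4 TPM and IRX4 119 ± 2.04 TPM. GRHL2, GATA3 and KLF5 were on as well, at 54.3, 47.4 and 80.8 TPM. SOX2, a frequent squamous carcinoma factor, was off, with 0, 0 and 1 counts. HNF4A, NKX2-1 and CDX2, factors of liver, lung and gut, had no count, and neither had FOXN1.

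HOX genes, which record position along the body axis, were on chiefly in 2 clusters. In HOXA 9 of 11 genes (81.8%) were on and in HOXB 6 of 10 (60%), where 55.3% of all genes were. In HOXC it was 1 of 9 (11.1%) and in HOXD 0 of 9. These counts depend on the threshold: at a mean of 5 TPM, and likewise at an RPKM of 1, 5 HOXA and 3 HOXB genes were on, and at a mean of 0.5 TPM 4 HOXC genes were. HOXB7 was highest with 62.9, 58.9 and 48.99 TPM, and HOXA10 followed with 32.4, 27.5 and 20.4 TPM, lowest in control 5. HOXA7 and HOXA3 averaged 11.6 and 9.10 TPM. The lone HOXC gene on was HOXC13, which acts in hair and nail, with 5.74, 5.67 and 5.07 TPM. HOXC9, HOXC10 and HOXC11 averaged 0.734, 0.713 and 0.674 TPM, just under the threshold, and 7 HOXD genes had no count. HOXA4 had no count although its neighbours HOXA3 and HOXA5 were on.

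Of 26 head and jaw homeobox genes 11 (42.3%) were on, fewer than the 55.3% of all genes. Of the 11, 4 reached a mean of 5 TPM and 6 an RPKM of 1. PITX1, a hindlimb and jaw factor, stood at 61.6, 56.4 and 56.8 TPM and BARX2 at 59.7, 58.7 and 44.6 TPM in controls 1, 3 and 5. SIX4 and DLX1 averaged 8.67 and 3.66 TPM. PAX9, a marker of oral epithelium, was near the threshold with 1.33, 1.57 and 1.43 TPM. Off were DLX5, BARX1 and OTX2, with no count, and MSX1, DLX2 and DLX3.

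Of 28 mesenchymal genes 15 (53.6%) were on, near the 55.3% of all genes. Fibronectin (FN1) was far above the others with 595, 780.2 and 805 TPM in controls 1, 3 and 5. Tenascin C (TNC), a matrix glycoprotein, averaged 80.9 ± 13.5 TPM, N-cadherin (CDH2) 50.8 ± 4.21 TPM and SNAI2, a transcription factor of epithelial plasticity, 41.3 ± 2.62 TPM. TAGLN averaged 22.04 TPM, but it overlaps a counted gene and is uncertain. Vimentin (VIM), the main filament of mesenchymal cells, was low at 5.94, 6.10 and 10.4 TPM. ZEB1, ZEB2, PDGFRB and THY1 were off, and DCN, PDGFRA and POSTN had no count.

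Other lineages were off for the most part, where 55.3% of all genes were on. Among 30 blood cell markers 4 were on, with LCP1, an actin-bundling protein, at 242, 272 and 241 TPM, CD68 at 50.3 ± 7.65 TPM and the integrin chain ITGB2 at 29.7 ± 0.509 TPM; 18 markers had no count. Of 17 neural markers 4 were on, led by the tubulin TUBB3 at 80.4, 93.9 and 99.5 TPM and the neurofilament NEFL at 15.1 ± 0.313 TPM. MITF, 8.34 TPM, was the melanocyte gene on of 7, and TNNT3, 5.80 TPM, the muscle gene on of 13. Of 15 liver and gut markers PRSS1, a trypsinogen with close paralogs, averaged 21.3 ± 4.30 TPM and SERPINA1 1.56 TPM. None of 18 salivary gland and airway markers was on, and AQP5, STATH and HTN3 had no count. Among 32 germ line, pluripotency and cancer-testis genes 5 were on: MAGEA4 at 9.73 ± 0.832 TPM, MAGEA3 at 5.18 TPM, TERT at 2.08 TPM, MAGEA6 at 1.17 TPM and MAGEB2 at 1.004 TPM. MAGEA3 and MAGEA6 are near-identical and their split is uncertain.

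The longest runs of genes off lay in large gene families. The longest run of neighbouring genes off held 118 genes on chromosome 14, from SALL2 to TRAC across the T cell receptor alpha locus. The next held 91 genes on chromosome 14, through the immunoglobulin heavy chain locus, and the third 71 genes on chromosome 11, a region of olfactory receptors. The longest run of genes on held 38 genes on chromosome 9, from CDK9 to LRRC8A. Chromosomes 14 and 11 had 46.8% and 49.7% of their genes on, and chromosome 9 had 61.0%.

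Both ligands and receptors of the EGF family were on. Of 11 ligands 7 (63.6%) were on, where 55.3% of all genes were. Amphiregulin (AREG) led with 327, 316 and 321 TPM in controls 1, 3 and 5. EREG, HBEGF, TGFA and EPGN averaged 92.97 ± 6.01, 72.2 ± 22.3, 58.8 ± 2.87 and 13.5 ± 0.546 TPM, while EGF itself was off at 0.0188 TPM. Of the 4 receptors EGFR stood at 93.2, 117 and 105 TPM, ERBB2 at 43.1, 40.6 and 35.3 TPM and ERBB3 at 14.9, 16.9 and 13.5 TPM. Their ranges did not overlap, so the order EGFR, ERBB2, ERBB3 was kept in each library. ERBB4 was off, with 7, 6 and 6 counts.

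In the FGF list 4 of 13 genes were on, fewer than the 55.3% of all genes, and 1 reached 5 TPM. FGFBP1, a carrier that releases FGF from matrix, was the highest with 729.5, 681 and 643 TPM, while FGF11, FGF1 and FGF2 averaged 4.36, 4.29 and 1.92 TPM. FGFR3 was the leading receptor with 47.7, 49.6 and 52.01 TPM, ahead of the decoy FGFRL1 and of FGFR2 at 12.3 and 8.08 TPM. FGFR4 was off at 0.303 TPM, and FGFR1, common in mesenchymal cells, had 3, 1 and 2 counts.

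Of 43 other receptor tyrosine kinases 16 (37.2%) were on, fewer than the 55.3% of all genes. The collagen receptor DDR1 led with 224, 239.6 and 231 TPM, followed by the ephrin receptor EPHA2 with 203 ± 21.3 TPM, AXL with 146 ± 1.12 TPM, the HGF receptor MET with 140.1 ± 12.4 TPM and PTK7 with 136 ± 10.4 TPM. IGF1R averaged 17.01 TPM, whereas the insulin receptor INSR had 4, 5 and 3 counts. KIT, KDR, FLT1, PDGFRA and ROR2 had no count.

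Ligands and receptors of the TGF-beta and BMP pathways were on in 11 of 16 and 15 of 20 cases. These shares were 68.75% and 75%, against 55.3% of all genes. GDF15, a stress-induced member, stood at 159, 154 and 137 TPM in controls 1, 3 and 5 and the activin chain INHBB at 131 ± 20.96 TPM. TGFB1 and TGFB2 averaged 75.2 and 20.7 TPM and TGFB3 was off. BMP1, a protease named with the ligands, averaged 99.4 TPM. TGFBR2, the receptor that binds the ligand, stood at 65.98, 74.6 and 63.5 TPM and its partner TGFBR1 at 40.8 ± 3.71 TPM. SMAD3 averaged 37.6 ± 3.08 TPM, above SMAD2 at 6.56 ± 0.787 TPM, and SMAD4, the shared partner, 12.3 ± 1.59 TPM. Off were SMAD6, SMAD9, ACVR1C, ACVR1 and ACVRL1, of which ACVR1 and ACVRL1 had no count. INSR and ACVR1 are expressed by most cell types, and whether reads were lost there in counting was not tested.

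Notch genes were on in 12 of 18 cases (66.7%), where 55.3% of all genes were. JAG1, the leading ligand, averaged 114 ± 8.55 TPM against 51.1 ± 2.45 TPM of JAG2, and DLL3 and DLL4 were off. The receptors NOTCH1 and NOTCH2 stood at 24.5, 28.4 and 28.96 TPM and 24.5, 29.1 and 23.7 TPM in controls 1, 3 and 5, with overlapping ranges, NOTCH3 averaged 6.19 TPM and NOTCH4 was off. Of the targets HES4, HES2 and HES1 averaged 163, 115 and 114 TPM, whereas HEY1, HEY2 and HEYL were off.

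Wnt ligands were on in 11 of 19 cases (57.9%), near the 55.3% of all genes. Of the 11, 6 reached a mean of 5 TPM and also 6 an RPKM of 1. WNT10A was highest at 128, 133 and 103 TPM. WNT7A, WNT3A and WNT7B averaged 61.1, 57.4 and 56.8 TPM and WNT5B 20.9 TPM, while WNT1 and WNT2 were off. Among 15 receptors and co-receptors 13 (86.7%) were on, 6 of them from 5 TPM up. LGR4 led with 65 ± 5.32 TPM, followed by LRP5 with 62.9 ± 1.09 TPM and FZD6 with 59.8 ± 5.47 TPM. FZD2 and FZD7 averaged 21.9 and 10.4 TPM. LGR5, an intestinal stem cell marker, had no count.

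Ligands of the Hedgehog pathway and its target GLI1 were off. Of 11 genes 4 (36.4%) were on, fewer than the 55.3% of all genes, and 1 of them was on from 5 TPM up. The 4 were the inhibitor SUFU at 7.45 ± 0.708 TPM, SMO at 4.56 ± 0.363 TPM, the receptor PTCH1 at 4.17 ± 0.433 TPM and GLI3 at 2.83 ± 0.421 TPM. SHH was off at 0.332 TPM, as was IHH, and DHH, GLI1, GLI2 and HHIP had no count.

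Nuclear receptors were on in 24 of 46 cases (52.2%), close to all genes. RXRA, the common dimer partner, stood at 163, 164 and 143 TPM in controls 1, 3 and 5. ESRRA averaged 159 TPM but overlaps a counted gene and is uncertain, and NR2F6, NR2F2 and RXRB averaged 132, 97.3 and 53.1 TPM. Oestrogen and progesterone receptors ESR1 and PGR were off at 0.781 and 0.0728 TPM. Off too were ESR2, NR3C2 and RORA.

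Of 24 interleukins and colony-stimulating factors 14 (58.3%) were on, near the 55.3% of all genes. IL1B, a main inflammatory cytokine, stood at 171, 185 and 265 TPM and IL1A at 119, 128 and 167 TPM in controls 1, 3 and 5. IL18 averaged 153 ± 7.28 TPM, LIF 81.1 ± 28.9 TPM and the receptor antagonist IL1RN 30.2 ± 2.51 TPM. CSF2, a myeloid growth factor, was a variable gene with 2.79, 4.75 and 8.70 TPM. IL10, IL33 and IL36A had no count, and OSM, TSLP and IL12A were off. Members on were highest in control 5 in 10 of 14 cases, where 18.7% of all genes on were.

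Among 20 chemokines 12 (60%) were on, near the 55.3% of all genes. CXCL1, which attracts neutrophils, stood at 153, 159 and 209 TPM and the transmembrane chemokine CXCL16 at 132 ± 6.29 TPM. CXCL11, CXCL8 and CCL28 averaged 52.96 ± 6.13, 24.3 ± 9.30 and 23.9 ± 1.87 TPM, and CCL2, CXCL12, CXCL14 and CXCL9 had no count. CXCL2, a relative of CXCL1, varied with 5.25, 10.9 and 21.1 TPM, lowest in control 1 and highest in control 5. On log2(TPM + 1) its control 5 lay almost as far above control 3 as control 1 lay below it.

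Cytokine receptors were on in 28 of 38 cases (73.7%), where 55.3% of all genes were. TNFRSF21, a death-domain receptor, led with 859, 885 and 705 TPM, followed by the TWEAK receptor TNFRSF12A with 367 ± 40.1 TPM. OSMR, IL20RB and IFNGR1 averaged 166, 132 and 114 TPM, while OSM, the ligand of OSMR, was off. CXCR4, CXCR1 and TNFRSF1B had no count, and IL2RG, CCR7 and IL11RA were off.

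Of 21 pattern receptors and inflammasome genes 16 (76.2%) were on, where 55.3% of all genes were. The adaptor PYCARD averaged 95.3 ± 11.2 TPM and CASP1, which matures interleukin 1 beta, 91.03 ± 6.30 TPM. The RNA sensors DDX58 and IFIH1 averaged 58.3 ± 1.92 and 51.3 ± 2.45 TPM, and the DNA sensor CGAS 40.4 ± 1.70 TPM. TLR7, TLR8, TLR9, TLR5 and NLRC4 were off.

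Checkpoint ligands were on in 11 of 15 cases (73.3%), where 55.3% of all genes were. NT5E, an ectoenzyme that makes adenosine, stood at 142, 165 and 147 TPM in controls 1, 3 and 5. NECTIN2, CD47, CD276 and PVR averaged 73.9, 57.4, 44.9 and 44.6 TPM, while CD80 and HHLA2 had no count and CD86 and TNFSF4 were off. Of 10 MHC class II genes 2 (20%) were on. CD74, the invariant chain, stood at 143, 168 and 164 TPM and HLA-DMA at 1.51 TPM. The transactivator CIITA was off at 0.198 TPM, as were HLA-DRA and HLA-DRB1, and HLA-DPB1, HLA-DQA1 and HLA-DQB1 had no count; HLA genes share sequence and are uncertain.

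Integrin subunits were on in 13 of 26 cases (50%), near the 55.3% of all genes. ITGA3 and ITGB1, which pair as a laminin receptor, stood at 545, 563 and 583 TPM and at 585, 581 and 479 TPM, and ITGAV averaged 181 ± 29.2 TPM. ITGB6 and ITGB3 had no count. Of 18 matrix metalloproteinases 8 (44.4%) were on, fewer than the 55.3% of all genes. The membrane-bound MMP14 stood at 562, 574 and 579.5 TPM, and MMP2 and MMP15 averaged 78.2 ± 8.19 and 77.97 ± 3.06 TPM. MMP28 averaged 38.9 TPM, and MMP9, MMP10, MMP13 and MMP3 were off. MMP1, the interstitial collagenase, was a variable gene.

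Regulators of the G1 phase were on in 22 of 24 cases (91.7%), where 55.3% of all genes were. Cyclin D1 (CCND1) stood at 501, 483 and 461 TPM in controls 1, 3 and 5, and the kinase inhibitor CDKN1A, a p53 target, at 326, 348 and 375 TPM. MYC averaged 142 ± 24.2 TPM and CCND2 109 ± 10.1 TPM, and CDK4, at 102 TPM, overlaps a counted gene. CDKN1C and MYCN were off. All 30 G2/M genes were on, with CKS2 at 232 ± 45 TPM, the APC activator CDC20 at 215 ± 39.9 TPM, CDC25B at 191 ± 6.10 TPM, UBE2C at 180.2 ± 36.5 TPM and TPX2 at 176 ± 32.7 TPM. They were lowest in control 5 in 29 of 30 cases, with a median log2 deviation of control 5 from the mean of the other controls of -0.48. Over all genes on, 59.5% were lowest in control 5 and the median deviation was -0.10. CDC20, for instance, stood at 226, 248 and 170.5 TPM, and CENPA, the centromeric histone, at 21.7, 28.7 and 13.05 TPM. Fewer cells in G2/M and less of these mRNAs per cell cannot be told apart in bulk RNA.

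In the list of MAP kinase phosphatases and sprouty genes 13 of 16 members (81.25%) were on, where 55.3% of all genes were. After DUSP1, which is described with the variable genes, DUSP4, DUSP10, DUSP6 and DUSP5 averaged 71.8 ± 7.06, 67.9 ± 7.84, 59.5 ± 16.7 and 29.03 ± 7.02 TPM. DUSP6, an ERK-specific phosphatase, stood at 47.3, 52.6 and 78.5 TPM in controls 1, 3 and 5. Members on were highest in control 5 in 10 of 13 cases, where 18.7% of all genes on were highest there. Their median log2 deviation in control 5 was 0.24, against -0.10 for all genes on. DUSP2, SPRY3 and SPRED3 were off.

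Metabolic and stress lists were almost fully on, where 55.3% of all genes were on. Of NRF2 targets 22 of 22 were on, 14 of them highest in control 5, where 18.7% of all genes on were; after the ferritins, the pentose phosphate enzymes TALDO1 and TKT averaged 851 ± 15.5 and 705 ± 55.01 TPM. AKR1C2 and AKR1C3, aldo-keto reductases that are close paralogs, were variable, at 4.70, 6.09 and 12.2 TPM and 7.39, 5.78 and 12.8 TPM in controls 1, 3 and 5. In the hypoxia and glycolysis list 21 of 22 were on, and after GAPDH came PKM, ENO1, ALDOA and PGAM1 with 2216, 2172, 1679 and 1105 TPM, while CA12 had no count. Interferon-stimulated genes were on in 21 of 24 cases. ISG15, a ubiquitin-like protein, stood at 629, 524 and 539.8 TPM, IFITM3 at 482 ± 43.3 TPM, IFI27 at 293 ± 26.9 TPM, IRF1 at 123 ± 9.60 TPM and IFI6 at 100.1 ± 11.4 TPM; IFI44L, RSAD2 and OASL were off. Both transfection and culture are shared by all libraries, so no unstimulated level was measured.

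Over all 47 lists 539 of 905 genes were on, where 55.3% of all genes were. Members nearest the threshold were, on its upper side, MAGEB2 at 1.004 TPM, BMPR1B at 1.04 TPM and BMP3 at 1.11 TPM, and on its lower side SCGB1A1 at 0.916 TPM, IL22RA1 at 0.912 TPM and NR4A1 at 0.889 TPM. Without control 5, 118 genes changed between on and off, among them the list members MAGEA6, WNT5A, WNT16, CCL5, IL22RA1, FOSB and CDKN1C. Without control 1 it was 113 genes and without control 3 it was 97.

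The spread between controls was modest and exceeded that of counting. Over genes on, the median CV was 8.86%. It was 12.7% for genes of 1 to 10 TPM, where counting alone gives 9.46%, 8.09% against 3.86% for 10 to 100 TPM, 7.24% against 1.86% for 100 to 1000 TPM, and 7.65% against 0.767% at 1000 TPM or more. The observed CV levelled off above 10 TPM while the counting CV went on falling. Modelled from the counts with edgeR, the biological coefficient of variation common to 12033 genes was 11.4%, and it was 6.42% without control 5, 11.8% without control 1 and 13.5% without control 3.

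**Figure D3:**
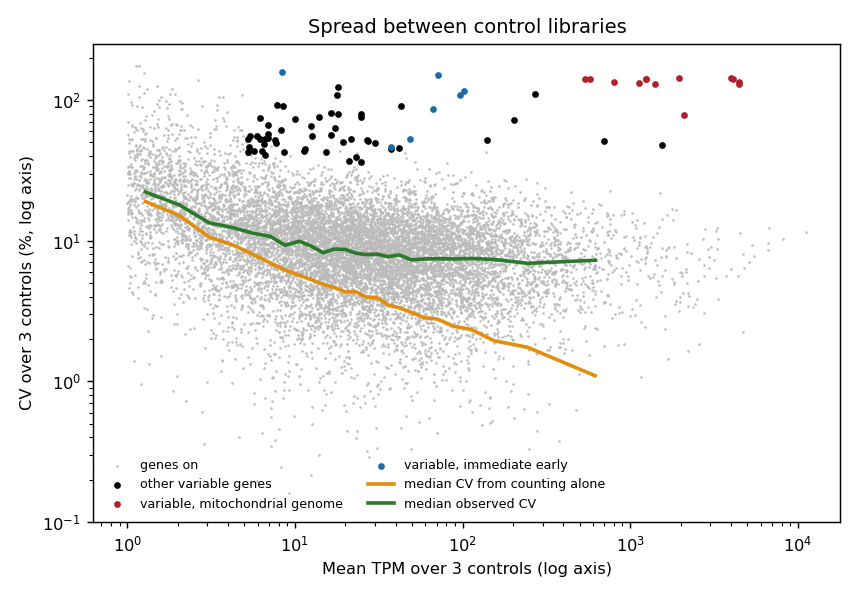
CV of TPM over the 3 controls (%, log axis) against mean TPM (log axis) for each gene on, with medians in 25 bins of equal gene number (green) and the median CV that counting alone gives (orange). Variable genes are drawn larger, with mitochondrial genes in red and immediate early genes in blue; observed medians level off while the counting medians go on falling.

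Among 3519 genes with a mean of at least 50 TPM, TUBB2A, a tubulin, had the lowest CV at 0.141%, with 153, 153 and 153 TPM in controls 1, 3 and 5. SLC38A10, PTPN12, UQCR10, PSMD2, IL4R, BLCAP, CCDC86, PSMD1, SFXN1, NCLN, BSDC1, MRPL14, PRMT5, LRRC59, EIF1, IMPDH2, TMEM179B, TRIM16 and ILK followed, with CVs from 0.192% to 0.671%. PSMD1 and PSMD2 are subunits of the proteasome cap, and EIF1 is a translation start factor. These are the lowest of 3519 values, each from 3 libraries, and 251 genes (7.13%) had a CV under their counting CV. A CV of 5% or less was seen in 996 genes (28.3%).

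Genes were called variable where the mean was at least 5 TPM and log2(TPM + 1) spanned at least 1, a range of 2-fold in TPM + 1. This held for 72 of 9931 genes (0.725%). Control 5 lay farther from the middle value in 58 of them, higher in 48 (0.483% of the 9931) and lower in 10 (0.101%). Control 1 stood apart in 7 genes and control 3 in 7. Between controls 1 and 3 alone, 7 of 9953 genes (0.0703%) met the rule. Of the 72, 28 are list members, 12 are unnamed loci and 16 overlap the exons of another counted gene, so their levels are uncertain.

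Mitochondrial mRNAs made up 13 of the 72, which is every mRNA of that genome. MT-ATP6, an ATP synthase subunit, stood at 531, 896 and 10537 TPM in controls 1, 3 and 5, MT-ND4 of complex I at 274, 432 and 5200.4 TPM and MT-CYB of complex III at 187, 291 and 3250.0 TPM. MT-ND3 differed least, at 1145, 1172 and 3979.8 TPM. MT-ATP8 overlaps MT-ATP6, and its level is uncertain. In each of the 13, control 3 was above control 1 by far less than control 5 was above both. As a share of counts the mitochondrial mRNAs took 0.158% (Wilson 95% interval 0.156% to 0.160%), 0.216% (0.214% to 0.219%) and 2.27% (2.26% to 2.28%) of controls 1, 3 and 5; intervals cover counting error only. MTRNR2L8 and MTRNR2L12, nuclear genes similar to mitochondrial ribosomal RNA, moved in the same direction, at 5.94, 4.41 and 43.6 TPM and at 90.7, 106 and 620.3 TPM; shared reads between them and mitochondrial RNA were not tested.

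Immediate early genes supplied 7 of the variable genes. In the list 22 members had a mean of at least 5 TPM, and 0.725% of all genes at that level were variable. FOS (ENSG00000170345, chr14:75278826-75282230), a subunit of the AP-1 transcription factor, stood at 8.81, 9.88 and 196 TPM in controls 1, 3 and 5. FOSB, its relative, stood at 0.626, 0.738 and 23.6 TPM and EGR1, a zinc finger factor, at 29.9, 38.1 and 238 TPM. In all 3 genes control 5 was high and controls 1 and 3 were close. DUSP1, a phosphatase that inactivates MAP kinases, stood at 35.2, 36.6 and 217 TPM, CCN2, a matricellular protein, at 31.3, 34.8 and 133 TPM, ZFP36, an mRNA decay factor, at 29.3, 38.2 and 77.4 TPM and ATF3, a stress factor, at 25.98, 28.8 and 57.3 TPM. Of the 30 genes in the list 24 (80%) were on, against 55.3% of all genes. Those 24 were highest in control 5 in 19 cases, where 18.7% of all genes on were. Their median log2 deviation in control 5 was 0.57, where all genes on gave -0.10. CCN1 and IER3, the most abundant members, averaged 650.5 ± 118 and 643 ± 56.7 TPM, and MCL1, JUND and JUNB 246, 203 and 164 TPM. EGR2, EGR3, EGR4, NR4A1, NR4A2 and NR4A3 were off. NR4A1 had 7, 12 and 52 counts.

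The promoters of the variable immediate early genes with the widest ranges are shown to place known motifs of this class: TGACGT, the core bound by CREB and ATF factors, searched on both strands (ACGTCA on the other), and the CArG box bound by SRF, whose pattern reads the same on both strands. Each sequence is the 250 bases before the RefSeq start on GRCh38.p14, read 5′ to 3′ on the gene's strand, with matches in capitals. FOS lies at chr14:75278578-75278827 (plus strand), FOSB at chr19:45467746-45467995 (plus), DUSP1 at chr5:172771196-172771445 (minus) and EGR1 at chr5:138465229-138465478 (plus).
FOS: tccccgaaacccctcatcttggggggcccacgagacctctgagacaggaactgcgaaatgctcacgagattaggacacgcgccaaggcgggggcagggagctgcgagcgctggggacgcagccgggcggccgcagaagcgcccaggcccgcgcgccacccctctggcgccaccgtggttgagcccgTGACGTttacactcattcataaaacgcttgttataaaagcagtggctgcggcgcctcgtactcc
FOSB: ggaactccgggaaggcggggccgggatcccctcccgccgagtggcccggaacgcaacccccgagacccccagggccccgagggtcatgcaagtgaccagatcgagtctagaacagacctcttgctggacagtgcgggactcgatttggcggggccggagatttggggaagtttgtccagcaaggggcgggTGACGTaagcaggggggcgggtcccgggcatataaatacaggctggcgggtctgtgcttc
DUSP1: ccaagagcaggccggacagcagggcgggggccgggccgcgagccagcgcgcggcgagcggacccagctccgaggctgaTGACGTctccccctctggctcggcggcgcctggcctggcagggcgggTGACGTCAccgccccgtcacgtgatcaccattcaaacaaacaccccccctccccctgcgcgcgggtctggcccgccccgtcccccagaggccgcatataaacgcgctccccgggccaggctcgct
EGR1: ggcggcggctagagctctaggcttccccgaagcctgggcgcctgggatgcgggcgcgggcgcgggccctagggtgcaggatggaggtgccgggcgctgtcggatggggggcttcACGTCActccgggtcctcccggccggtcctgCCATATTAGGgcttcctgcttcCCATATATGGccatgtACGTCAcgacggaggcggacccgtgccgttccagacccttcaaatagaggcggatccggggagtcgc
In FOS the motif TGACGT began 64 bases before the start and in FOSB 60 bases before it. DUSP1 held 3 matches, of which TGACGT at 125 bases and ACGTCA at 123 bases overlap. EGR1 held 2 CArG boxes, at 105 and 83 bases, and ACGTCA at 136 and 67 bases. Of 35116 RefSeq windows of this length 7.10% held TGACGT on either strand and 1.16% a CArG box. All 7 variable immediate early genes had a window, and 4 held TGACGT and 1 a CArG box; of the 15 other list members with a window 5 and 2 did. A match describes letters and not binding. Bases outside these windows were not searched, so a motif not found here may lie farther from the start.

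Other variable genes with control 5 high were described by what they encode, and these sets were put together here from the variable genes. S100A7, S100A8 and S100A9 encode calcium-binding proteins released by stressed epithelium. S100A9 stood at 948, 1332 and 2390.3 TPM in controls 1, 3 and 5, S100A8 at 439, 545 and 1102 TPM and S100A7 at 98.99, 138 and 368 TPM. PI3, the protease inhibitor elafin, stood at 83.7, 115 and 222 TPM. The envelope genes SPRR1B, SPRR2A and SPRR2D stood at 5.61, 12.4 and 30.9 TPM, at 12.4, 14.5 and 47.8 TPM and at 13.2, 14.9 and 46.4 TPM, and the SPRR2 copies are similar enough to share reads. These 7 genes were picked with control 5 high, so its place as highest was fixed by that choice. Control 1 was lowest in each of them. The list of squamous differentiation genes holds SPRR1B and SPRR2A. Of its 17 members on, 9 were highest in control 5, where 18.7% of all genes on were. Lowest in control 5 were 5 of the 17, against 59.5% of all genes on. Among the lowest, the calmodulin-like protein CALML5 stood at 27, 20.8 and 15.9 TPM, dermokine (DMKN) at 11.6, 12.4 and 7.82 TPM and KRT13 at 198, 203 and 193 TPM in controls 1, 3 and 5.

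Further variable genes with control 5 high were of mixed kinds. MMP1 stood at 23.2, 18.2 and 87.6 TPM in controls 1, 3 and 5, the vasoactive peptide EDN1 at 29.03, 32.5 and 63.7 TPM, the matrix protease ADAMTS1 at 17.4, 20.4 and 43.1 TPM and the kinase SGK1 at 14.4, 15.6 and 34.9 TPM. HEPHL1, a ferroxidase, stood at 12.2, 15.5 and 30.3 TPM, PABPC1L at 9.12, 6.61 and 25.97 TPM and the repeat-family gene GOLGA8A at 6.81, 4.81 and 18.3 TPM. Named genes lower in control 5 were fewer. SMIM11B stood at 9.97, 8.21 and 2.47 TPM, the metallothionein MT1M at 8.95, 10.8 and 3.44 TPM and FAM72D at 9.21, 6.84 and 3.84 TPM. FAM220A stood at 28.4, 31.4 and 14.7 TPM, with 355, 404 and 191 counts. The unnamed locus AC009412.1, on the same strand and nearly the same span, had 95, 7 and 190 counts. A division of reads between these loci was not tested, so the level of FAM220A is uncertain. HSPE1-MOB4, SYNJ2BP-COX16 and MSANTD3-TMEFF1 are readthrough loci that overlap their parent genes.

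In a few genes control 1 or control 3 was the library apart. H2BS1, a histone gene with close relatives, had 39, 0 and 102 counts in controls 1, 3 and 5. CXorf49 stood at 13.1, 40.7 and 35.9 TPM, lowest in control 1. SAP30, a subunit of a histone deacetylase complex, stood at 16.8, 10.7 and 6.73 TPM, highest in control 1. On log2(TPM + 1) its control 5 lay almost as far below control 3 as control 1 lay above it. SLX1A, a nuclease subunit with a second copy, stood at 56.8, 29.4 and 26.6 TPM, also highest in control 1. NPIPA9 and AGAP4, members of repeat families, stood at 15.3, 7.68 and 26.2 TPM and 3.08, 5.93 and 7.99 TPM. The 3 variable genes with control 3 apart on the high side are unnamed loci.

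**Figure D4:**
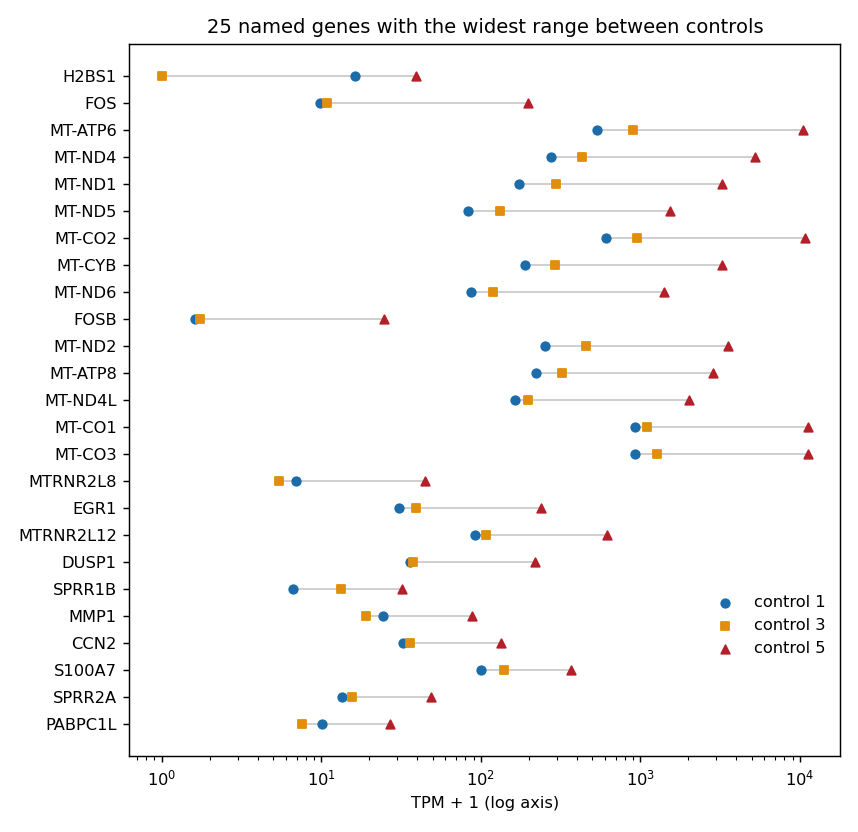
TPM + 1 (log axis) in controls 1, 3 and 5 of the 25 named genes with the widest range, ordered by range; grey lines join the lowest and the highest library. Control 5 is the highest library in each of the 25, and controls 1 and 3 lie close together in all but a few such as H2BS1 and SPRR1B.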

How the data were processed

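Messenger RNA was measured in 3 control siRNA libraries of HO-1-N-1 cells. The deposited table holds raw read counts, RPKM values and TPM values per gene, all made by the authors, and a signal headed CPM that was not used, per the file headers. Reads were placed on hg38, per the submitters' processing notes. Which aligner and counter were used, and whether strand was counted, is not given in the sources used here, so genes with overlapping exons are uncertain. So are histone, HLA, IFITM, SPRR2, AKR1C, FAM72, SMIM11 and tubulin genes, whose relatives could share reads. Counts and TPM were taken as deposited, with no filter beyond those stated. Of the genes, 21377 matched GENCODE 29 by identifier, which gave exon overlaps of at least 10%.

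Means, SDs and CVs were computed in Python 3.11.15 with pandas 2.3.3. The counting CV is that of a Poisson count of the gene's mean. The common dispersion came from edgeR 4.0.16 in R 4.3.3 (TMM, filterByExpr with minimum count 10 and minimum total 15, intercept only). Alternatives used RPKM, DESeq2 1.42.0 size factors, RLE scaling, other thresholds and each library left out. On simulated data, the rule for variable genes called 0 of 50 genes changed 1.5-fold in 1 library. It called 47 of 50 at 2.5-fold, 46 at 4-fold and 50 at 8-fold. It also called 3 unchanged genes, where 9931 genes, the changed ones included, were in the step. Every simulated gene had the common dispersion, and unchanged genes had equal expected shares in all libraries. The simulation therefore does not give the rate of false calls in the real libraries.

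The members and the 47 lists were chosen with earlier results of these data known. Named genes are the 25 of highest mean TPM, up to 5 of highest mean per list with the off members by count and up to 6 names, the 25 widest and, per library and side, 5 widest variable genes, variable list members and the 20 of lowest CV from 50 TPM up. A few relatives and partners outside that rule were named after their values were seen. Some genes that the rule named are not reported here.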

Additional observations from a re-analysis of the deposited data

How the results depend on the processing

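No paired analysis was possible because a single group was described and no result comes from a test. The count of genes on was 11859, and it lay between 9931 (mean of 5 TPM) and 12457 (mean of 0.5 TPM) over the alternatives run, within 1.5 times; the 539 list members on moved to between 443 and 578. Single lists moved more: of 47, the count on moved by over 1.5 times in 12 at a mean of 5 TPM, in 8 with RPKM and in 4 at 0.5 TPM. Germ line genes on, 5, became 2 at 5 TPM and with RPKM; HOX, homeobox, FGF, Wnt and Hedgehog counts are given with their lists. The share of the 10 genes of highest mean, 6.48% of TPM, was 4.63% of read counts, 6.67% without mitochondrial genes, 7.33% with genes ranked within each library (chosen after seeing the data), and 6.58% to 6.89% with 1 library left out. Its SD, 0.178, was 2.75 without control 1 and 2.86 without control 3. The median CV, 8.86%, was 7.65% on TMM-scaled CPM and on DESeq2 size factors, 10.98% with no filter, 7.88% from 10 TPM up, and 5.63% to 8.57% with 1 library left out. The 72 variable genes became 232 with no filter, 36 from 20 TPM up and 377 at a 1.5-fold range, and 7 to 65 with 1 library left out, 7 being without control 5. Control 5 stood apart in 80.6% of them, in 57.3% with no filter and in 91.7% from 20 TPM up. Of the 72, 63 were also variable on TMM-scaled CPM and, of the 59 that are not mitochondrial, 54 with mitochondrial genes out of the total. The common coefficient of variation, 11.4%, was 11.6% with no filter and 6.42% to 13.5% with 1 library left out, lowest without control 5. The causes were not tested. Depth limits genes near 1 TPM, which rest on about 20 counts.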
